A study of Homo sapiens with 6 samples.

Results

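The genes described here are 10 inflammatory cytokine and chemokine genes: IL6, LIF, IL1A, IL1B, CXCL1, CXCL2, CXCL3, CXCL8, CCL2 and CCL20. They are the 10 rows, of 60664 in the deposited count table, whose Ensembl identifier carries one of these symbols. The sequenced RNA came from SiHa PR cells, the parental population of the lymph node metastatic SiHa LNM2 cells, and SiHa itself is an established human cervical squamous carcinoma line. The design has 3 control libraries, labelled only SiHa PR, and 3 libraries of SiHa PR cells overexpressing P4HA3, a catalytic subunit of collagen prolyl hydroxylase. The study describes a constitutive pCDH lentiviral vector and a doxycycline-inducible pLVX-TetOne vector, and the sources used here do not state which of these, or whether a single clone or a pool, was sequenced. No ligand, drug or other stimulus is given for either group. The comparison asks how the RNA of these genes differed between cells with and without the P4HA3 construct.

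IL6 and LIF are cytokines that signal through the shared receptor chain IL6ST, also called gp130, to JAK kinases and STAT3. IL1A and IL1B are alarm cytokines of the IL-1 family that act on IL1R1 and, through IRAK and MAP3K7 (TAK1), on NF-kB. CXCL1, CXCL2, CXCL3 and CXCL8 are neutrophil-attracting chemokines that act mainly through CXCR2, and CXCL8 acts through CXCR1 as well. CCL2 attracts monocytes through CCR2, and CCL20 attracts CCR6-bearing dendritic cells and lymphocytes. In epithelial and carcinoma cells most of these genes are textbook targets of NF-kB, AP-1 and C/EBP factors, and their mRNAs are short-lived.

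The promoters of IL6 and of the CXC chemokines are printed because 4 of these 5 genes were lower with P4HA3 overexpression, with CXCL8 beside them for comparison. All 5 also hold a match to kB letters, which were chosen with textbook sites in these genes in mind. Each run holds the 250 bases before the RefSeq start site (GRCh38.p14), 5′ to 3′ on the gene's own strand, and capitals mark matches to the kB letters GGNNTTTCC.
IL6 (chr7:22726950-22727199, plus strand): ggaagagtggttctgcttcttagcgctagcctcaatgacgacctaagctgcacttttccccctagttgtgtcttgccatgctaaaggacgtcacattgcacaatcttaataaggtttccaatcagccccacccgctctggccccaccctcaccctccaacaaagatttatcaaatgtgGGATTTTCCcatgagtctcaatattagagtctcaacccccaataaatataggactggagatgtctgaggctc
CXCL1 (chr4:73869143-73869392, plus strand): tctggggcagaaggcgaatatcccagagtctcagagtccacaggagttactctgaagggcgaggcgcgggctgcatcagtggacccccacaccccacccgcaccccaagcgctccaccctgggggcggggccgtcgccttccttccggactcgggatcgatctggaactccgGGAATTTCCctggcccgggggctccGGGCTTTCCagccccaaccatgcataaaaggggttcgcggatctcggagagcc
CXCL2 (chr4:74099196-74099445, minus strand): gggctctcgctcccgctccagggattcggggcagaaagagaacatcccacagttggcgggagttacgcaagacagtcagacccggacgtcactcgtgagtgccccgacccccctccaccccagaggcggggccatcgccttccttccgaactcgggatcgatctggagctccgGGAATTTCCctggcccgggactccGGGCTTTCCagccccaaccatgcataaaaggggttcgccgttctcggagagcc
CXCL3 (chr4:74038690-74038939, minus strand): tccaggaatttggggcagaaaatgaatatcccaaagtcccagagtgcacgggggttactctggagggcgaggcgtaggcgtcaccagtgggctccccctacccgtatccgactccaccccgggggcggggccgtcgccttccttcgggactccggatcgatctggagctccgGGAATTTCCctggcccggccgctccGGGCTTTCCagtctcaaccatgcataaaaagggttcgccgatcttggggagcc
CXCL8 (chr4:73740319-73740568, plus strand): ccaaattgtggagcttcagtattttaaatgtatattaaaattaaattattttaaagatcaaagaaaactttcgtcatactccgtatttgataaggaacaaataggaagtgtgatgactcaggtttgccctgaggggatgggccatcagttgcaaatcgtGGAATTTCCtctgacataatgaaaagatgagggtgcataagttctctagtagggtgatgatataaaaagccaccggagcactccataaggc

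The letters GGNNTTTCC were searched on both strands, together with TGANTCA for AP-1 and TTGCNNAA for C/EBP, all chosen with textbook sites in these genes in mind. A promoter entry was found for 8 of the 10 genes, and LIF and CCL2 had none. Of these 8 genes, 6 held a kB match (IL6, CXCL1, CXCL2, CXCL3, CXCL8 and CCL20), against 5.48% of 34788 human promoters of the same length. Because the letters were chosen with these genes in mind, that is not an independent comparison. CXCL1, CXCL2 and CXCL3 were 90% to 95% identical in the last 100 bases before the start, so their matches are not separate cases. The sequences above show a pair of kB matches in CXCL1, CXCL2 and CXCL3, at nearly the same distance from the start (78 and 53 bases before it in CXCL1 and CXCL3, 77 and 53 in CXCL2). IL6 had a single kB match 72 bases before its start, CXCL8 a single match 91 bases before, and CCL20 a match on the opposite strand 79 bases before. An AP-1 match was present in 2 of the 8 genes, CXCL8 and IL1A, and in 6.59% of all promoters. A C/EBP match was present in 3, IL6, CXCL2 and IL1B, and in 9.05% of all promoters. None of these matches overlapped a match of another motif. A match describes the letters only and is not a measured binding site.

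**Figure D1:**
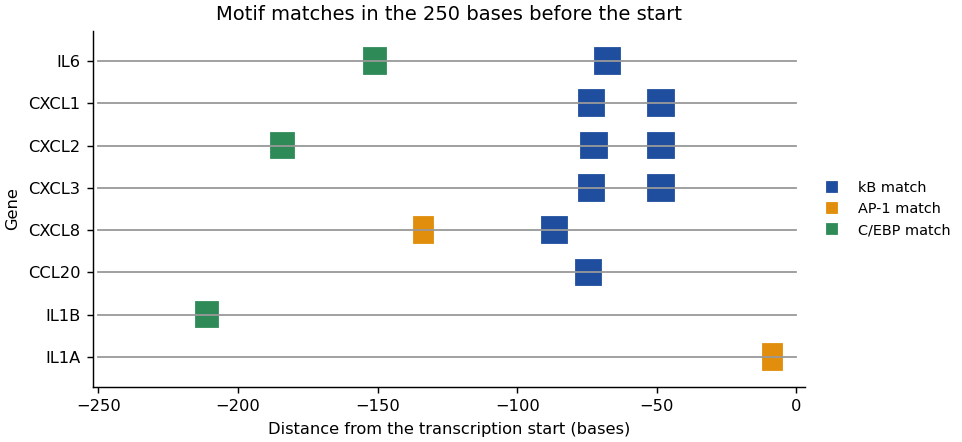
Positions of the kB, AP-1 and C/EBP matches (coloured boxes, drawn to the length of the motif) in the 250 bases before the RefSeq start of the 8 genes with a promoter entry, with the distance from the start in bases on the x axis. CXCL1, CXCL2 and CXCL3 each hold a pair of kB matches, IL6 and CXCL8 hold 1 each with a C/EBP or an AP-1 match farther upstream, and IL1B and IL1A hold no kB match.

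Total counts per library lay between 21773488 and 24939948. The P4HA3 count was 62 to 93 in the control libraries and 44775 to 49097 with overexpression, which matched the labels. The epithelial keratin KRT7 was at 4329 CPM (counts scaled to library size, with TMM normalization) in control cells and 4580 CPM with overexpression. The labels' growth protocol speaks of smooth muscle, against their own cell line entry. KRT7 was the highest of 8 epithelial markers. KRT8, KRT18 and CDKN2A had at least 7066 counts in every library. The remaining markers were lower: CDH1 had 206 to 405 counts, EPCAM 116 to 150, KRT19 14 to 31 and KRT5 3 to 4. Of 7 smooth muscle markers, MYH11, DES, CNN1 and LMOD1 had at most 9 counts in any library, while SMTN had 1948 to 2541, TAGLN 195 to 427 and ACTA2 161 to 204. Of 12 leukocyte markers, 11 had at most 2 counts in any library, and CD14 was the exception. Of 15130 genes tested with edgeR's quasi-likelihood test, 1731 (11.4%) were lower and 1416 (9.36%) higher at an adjusted p under 0.05. An unadjusted p under 0.05, in either direction, was reached by 5854 of the 15130. Nothing in the sources used here says that the libraries of a group came from separate cultures, so that p-values measure only the spread between these samples. In a bulk sample, fewer cells expressing a gene and less RNA per cell cannot be told apart.

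Of the 10 genes, 4 were lower with P4HA3 overexpression: IL6, CXCL1, CXCL2 and CXCL3. These are the most abundant cytokine of the set and its 3 GRO chemokines, a near-identical trio that recruits neutrophils. None of the 10 was called higher by edgeR, none was higher at an unadjusted p under 0.05, and DESeq2 called none higher by either measure. LIF and CXCL8 were measured well above the detection floor of 3 counts and did not pass the test. IL1B, a low gene, did not pass it either (edgeR adjusted p = 0.0643), and IL1A, CCL2 and CCL20 had too few counts to be tested. The 4 lower genes stand beside the 11.4% of all tested genes called lower and the 9.36% called higher. CXCL3 and IL1B were kept by the filter on low counts through the control group, where all 3 libraries were high enough against 2 and 0 libraries with overexpression, so they entered the test through the group in which they were higher.

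**Figure D2:**
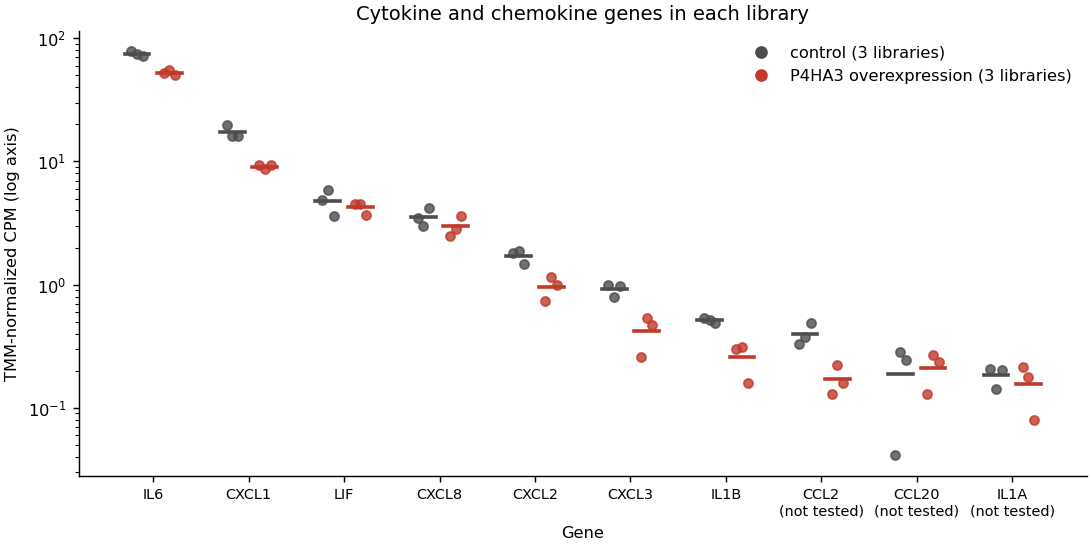
TMM-normalized CPM on a log axis of the 10 genes in each control library (grey points) and each P4HA3 overexpression library (red points), with a bar at the group mean, ordered by level. The points of the groups separate for IL6, CXCL1, CXCL2, CXCL3, IL1B and CCL2 and mix for LIF, CXCL8, CCL20 and IL1A.

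IL6 encodes the cytokine IL-6, which drives acute-phase and STAT3 responses. It was expressed at 78.2, 74.7 and 71.2 CPM in control replicates 1, 2 and 3. With P4HA3 overexpression the level was 51.8, 55.3 and 50.7 CPM in replicates 1, 2 and 3. Every overexpressing library lay below every control library, and the range within each group was small beside the gap between them. The mean fell from 74.7 ± 3.48 to 52.6 ± 2.40 CPM (SD, n = 3 per group), to 70.4% of control. The log2 fold change was -0.51 (standard error 0.0636, 95% interval -0.65 to -0.36, edgeR adjusted p = 0.00135). Only 6.06% of the tested genes had a lower log2 fold change. IL6 (ENSG00000136244) is a plus-strand gene of chromosome 7 (GRCh38, 22725884 to 22732002). Exons of IL6-AS1 and STEAP1B on the other strand overlap 428 and 46 of its exonic bases, and the strand setting of the authors' counting was not given in the sources used here. IL6-AS1 had at most 12 counts and STEAP1B at most 31 in any library, against at least 1206 for IL6.

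LIF, the other gp130 cytokine of the set, was expressed at 4.89, 5.87 and 3.64 CPM in the control libraries and at 4.55, 4.49 and 3.71 CPM with overexpression. The groups overlapped, with control replicate 3 below all overexpressing libraries. Its log2 fold change was -0.17 (standard error 0.175, 95% interval -0.56 to 0.22, edgeR adjusted p = 0.494). The interval includes a fall as large as the one estimated for IL6, so a difference of that size in LIF was not excluded. LIF (chromosome 22, 30240453 to 30246759, minus strand) overlaps LIF-AS1 and LIF-AS2 on the other strand by 86 and 83 exonic bases, and these antisense genes had at most 0 and 3 counts.

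IL1B, the secreted IL-1 cytokine that caspase-1 activates, was a low gene with 13, 11 and 12 counts in the control libraries and 7, 7 and 4 with overexpression. The groups did not overlap. The means were 0.513 ± 0.0219 and 0.257 ± 0.0858 CPM (SD, n = 3 per group). The log2 fold change was -1.0 (standard error 0.35, 95% interval -1.78 to -0.23, edgeR adjusted p = 0.0643), which did not pass the threshold. DESeq2 gave IL1B an unadjusted p of 0.127. Without P4HA3 overexpression replicate 3 the edgeR adjusted p of IL1B was 0.233. IL1A, the cell-associated IL-1 cytokine, had 5, 3 and 5 counts in control cells and 5, 4 and 2 with overexpression, and was not tested by edgeR (exact permutation test on CPM, two-sided, p = 0.7, n = 3 per group). IL1B lies at 112829751 to 112836816 and IL1A at 112773925 to 112784493 on the minus strand of chromosome 2. IL1RN, which encodes the natural antagonist of both, had at most 1 count in any library.

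CXCL1 had the lowest adjusted p of the 7 tested genes. Its level was 19.7, 16.1 and 16.1 CPM in control replicates 1, 2 and 3. With overexpression it was 9.27, 8.67 and 9.30 CPM, so that the highest overexpressing library stood well under the lowest control library. The mean fell from 17.3 ± 2.08 to 9.08 ± 0.357 CPM (SD, n = 3 per group), to 52.6% of control. The log2 fold change was -0.93 (standard error 0.105, 95% interval -1.16 to -0.69, edgeR adjusted p = 0.000938), and 1.09% of the tested genes had a lower one. CXCL1, first known as GRO-alpha or melanoma growth-stimulating activity, lies on chromosome 4 from 73869393 to 73871308 on the plus strand.

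CXCL2 (GRO-beta) followed at a much lower level. It had 44, 40 and 36 counts in control replicates 1, 2 and 3 and 17, 26 and 25 in the overexpressing libraries. The groups did not overlap, and the mean fell from 1.72 ± 0.217 to 0.957 ± 0.215 CPM (SD, n = 3 per group). The log2 fold change was -0.84 (standard error 0.215, 95% interval -1.31 to -0.36, edgeR adjusted p = 0.024). CXCL3 (GRO-gamma) had 24, 17 and 24 counts in control cells and 6, 12 and 12 with overexpression, again without overlap. Its mean was 0.921 ± 0.107 and 0.421 ± 0.145 CPM (SD, n = 3 per group). The fitted log2 difference was -1.12 (standard error 0.292, 95% interval -1.77 to -0.48, edgeR adjusted p = 0.0251). Neither call survived every choice of libraries. For CXCL2 the edgeR adjusted p was 0.0886 and 0.108 when control replicate 1 or 2 was left out, and 0.0788 when P4HA3 overexpression replicate 3 was. For CXCL3 the edgeR adjusted p was 0.0916, 0.0752 and 0.0554 on leaving out control replicates 1, 2 and 3, and 0.0723 on leaving out P4HA3 overexpression replicate 3. With DESeq2 the adjusted p of CXCL2 was 0.074, and CXCL3 received none. Both genes lie on the minus strand of chromosome 4, CXCL2 at 74097040 to 74099196 and CXCL3 at 74036589 to 74038807.

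CXCL1, CXCL2 and CXCL3 are close paralogs, and their reads could in principle be shared. Their coding sequences, of 324 bases each, were 93.5% identical between CXCL1 and CXCL2, 90.7% between CXCL1 and CXCL3 and 94.4% between CXCL2 and CXCL3. No stretch of 100 bases of one transcript was found in another, and how the counting treated reads with several matches was not given in the sources used here. Summed over the 3 genes the level was 22.5, 18.7 and 18.6 CPM in control cells and 10.3, 10.4 and 10.8 CPM with overexpression. This sum does not depend on how counted reads were split among the 3 genes, but lacks any reads that the counting dropped. CXCL1 made up 86.7% of this sum in control cells and 86.8% with overexpression. The likeness extended upstream: the last 100 bases before the start were 95% identical between CXCL1 and CXCL2 and 90% in both pairs with CXCL3, against 45% to 47% with CXCL8.

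CXCL8 encodes IL-8, a ligand of both CXCR1 and CXCR2, and lies in the same cluster on chromosome 4 (73740519 to 73743716, plus strand). It was expressed at 3.45, 3.00 and 4.17 CPM in control cells and at 2.49, 2.80 and 3.63 CPM with overexpression. The groups overlapped, since P4HA3 overexpression replicate 3 lay above control replicates 1 and 2. The log2 fold change was -0.25 (standard error 0.178, 95% interval -0.65 to 0.14, edgeR adjusted p = 0.319). Whether its fold change differed from that of CXCL1 was not tested. The other members of the cluster measured here, CXCL5, CXCL6, PF4, PF4V1 and PPBP, had at most 1 count in any library.

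CCL2, the monocyte chemoattractant MCP-1, had 8, 8 and 12 counts in control cells and 3, 5 and 4 with overexpression. The groups did not overlap, at 0.398 ± 0.0833 and 0.17 ± 0.0479 CPM (SD, n = 3 per group). An exact permutation test on CPM, two-sided, gave p = 0.1, n = 3 per group, the smallest value that 3 libraries against 3 allow. Fitted without the filter on low counts, its log2 fold change was -1.21 (edgeR adjusted p = 0.0907). CCL20, the ligand of CCR6, had 1, 6 and 6 counts in control cells and 3, 6 and 6 with overexpression, a spread within the control group wider than any difference between the groups (exact permutation test, two-sided, p = 0.9, n = 3 per group). CCL2 lies on chromosome 17 from 34255274 to 34257208 and CCL20 on chromosome 2 from 227805739 to 227817564, both on the plus strand.

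**Figure D3:**
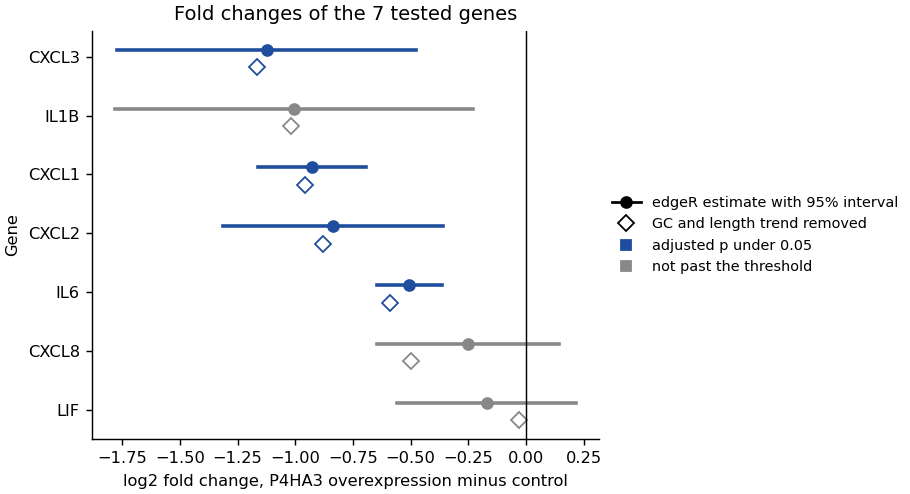
Log2 fold change of P4HA3 overexpression minus control for the 7 tested genes (filled circles, with the 95% interval of edgeR's quasi-likelihood fit), beside the estimate with the GC and length trend of each library removed (open diamonds), with blue for an adjusted p under 0.05 and grey otherwise. IL6, CXCL1, CXCL2 and CXCL3 are blue in both fits, CXCL8 moves from -0.25 to -0.50 and LIF from -0.17 to -0.03.

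Counted over all 10 genes, the groups did not overlap for 6, all of them lower with overexpression. These were the 4 called genes, IL1B and the untested CCL2. Of the 7 genes that were tested, 5 were without overlap and lower. CXCL3 and IL1B, which are among these 5, entered the test through the control group. Among all 15130 tested genes, 20.4% were without overlap and lower and 19.7% without overlap and higher. The summed level of the 10 genes was 110.1, 103.6 and 99.0 CPM in the control libraries and 69.9, 74.0 and 69.5 CPM with overexpression. IL6 made up 71.7% ± 0.579 of this sum in control cells and 74.0% ± 0.889 with overexpression (SD, n = 3 per group), so the sum mostly described IL6.

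Levels of different genes were compared per kilobase of transcript. In control cells the order was IL6 at 66.3 CPM per kb, CXCL1 at 14.7, CXCL8 at 2.16, CXCL2 at 1.54, LIF at 1.24, CXCL3 at 0.857, CCL2 at 0.537, IL1B at 0.341, CCL20 at 0.227 and IL1A at 0.091. CXCL2 and LIF, IL1B and CCL20, and CCL20 and IL1A overlapped between libraries, and the other neighbours in the order did not. With overexpression, IL6 at 46.7, CXCL1 at 7.74 and CXCL8 at 1.81 CPM per kb kept the first 3 places without overlap. LIF at 1.10 CPM per kb then stood before CXCL2 at 0.859, with overlapping libraries, and CXCL3 followed at 0.392. CCL20 at 0.253, CCL2 at 0.229, IL1B at 0.17 and IL1A at 0.0779 CPM per kb came last, each overlapping its neighbour, and CCL20 overlapping CXCL3.

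**Figure D4:**
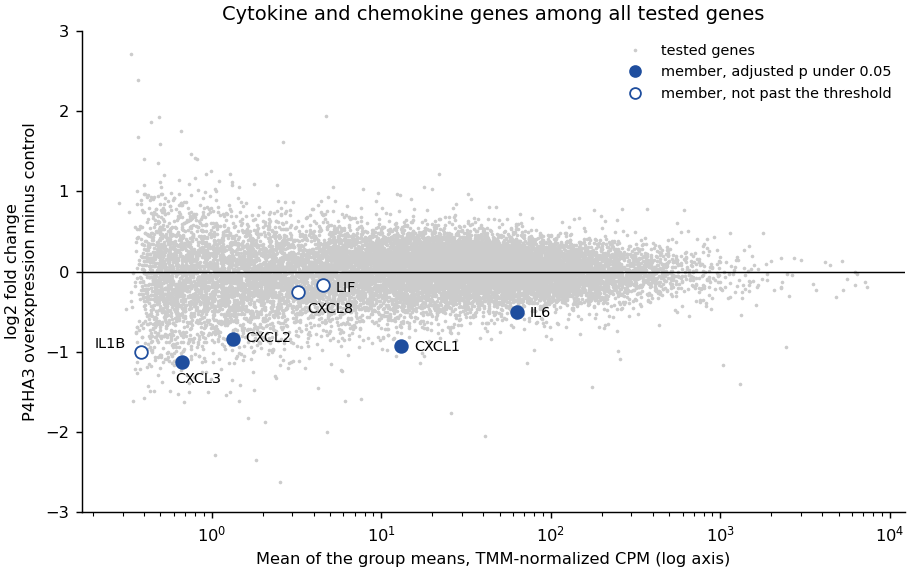
Log2 fold change against the mean level of the groups (TMM-normalized CPM, log axis) for the tested genes (grey points), with the 7 tested cytokine and chemokine genes in blue, filled where the adjusted p was under 0.05. All 7 lie below 0, with LIF and CXCL8 inside the main cloud and CXCL1 at its lower edge; P4HA3 and P4HA3-AS1, at 9.15 and 8.36, lie above the axis.

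Across genes, which are not independent replicates, the log2 fold change followed GC content, with a Spearman rho of -0.58 over 15107 genes, and genes of low GC content tended to be higher with overexpression. The median GC content of the tested transcripts was 49.3%. IL6 (42.5%), CXCL1 (45.4%), CXCL2 (44.7%), CXCL3 (44.7%), IL1B (46.2%) and CXCL8 (32.9%) lay under it, and LIF (57.1%) above it. With the trend on GC content and transcript length removed from each library, 1202 genes (7.96%) were lower and 1603 (10.6%) higher, so that higher genes made up 57.1% of the calls against 45% before. The same 4 cytokine and chemokine genes were lower. IL6 then had a log2 fold change of -0.59 (edgeR adjusted p = 6.31e-05), CXCL1 of -0.96 (edgeR adjusted p = 7.87e-05), CXCL2 of -0.88 (edgeR adjusted p = 0.0183) and CXCL3 of -1.16 (edgeR adjusted p = 0.0185). CXCL8 moved to -0.50 (edgeR adjusted p = 0.0729) and LIF to -0.03 (edgeR adjusted p = 0.913).

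Other cytokines of the list showed a mixed picture. Counts called in this and the following lists stand beside 11.4% of all tested genes called lower and 9.36% called higher. With the GC and length trend removed these shares were 7.96% and 10.6%. Before that removal, 5854 of 15130 genes had an unadjusted p under 0.05 by edgeR. Of 26, 14 were tested, with 3 lower and none higher by edgeR or by DESeq2 (1 higher by each at an unadjusted p under 0.05), and their median log2 fold change was -0.09 against 0.01 for all tested genes. The lower genes were IFNL1, a type III interferon (-0.60, edgeR adjusted p = 0.00663), and the transforming growth factors TGFB1 (-0.41, edgeR adjusted p = 0.00457) and TGFB3 (-0.40, edgeR adjusted p = 0.0172). TGFB2 was at -0.12 (edgeR adjusted p = 0.269). After removal of the GC and length trend, TGFB1 was at -0.16 (edgeR adjusted p = 0.0169), TGFB3 at -0.35 (edgeR adjusted p = 0.0149) and TGFB2, then also lower, at -0.28 (edgeR adjusted p = 0.00325). TNF, a common inducer of the genes described here, had 0 counts in every library, which allows up to 3 counts per library. CSF3, the granulocyte growth factor G-CSF, was not tested and is named after its values were seen. It had 17, 15 and 10 counts in control cells and 3, 2 and 0 with overexpression, without overlap.

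Of 26 other chemokines, 10 were tested, with 2 lower and none higher (also none at an unadjusted p under 0.05 and none by DESeq2), and a median log2 fold change of -0.24. CCL5, which attracts T cells and monocytes, was by far the most abundant chemokine in these cells. Its level was 365, 411 and 378 CPM in control cells and 299.9, 238 and 263 CPM with overexpression, with every overexpressing library below every control. The log2 fold change was -0.53 (standard error 0.0837, edgeR adjusted p = 0.00372). CXCL16, a membrane-bound chemokine, was also lower (-0.31, edgeR adjusted p = 0.025), and lost its call with the GC and length trend removed (-0.14, edgeR adjusted p = 0.128). CXCL10, an interferon-induced chemokine named after its values were seen, was at 17.1 and 16.9 CPM.

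Of 14 listed receptor genes, 9 were tested and none was called in either direction by edgeR or DESeq2. At an unadjusted p under 0.05, 2 were lower by each tool and none higher. By edgeR, 5854 of all 15130 tested genes had such a p, in either direction. OSMR, a partner chain of gp130, and ACKR3, a chemokine scavenger, were the most abundant of the list. Neither is an established receptor of the ligands described here. Their log2 fold changes were -0.17 (edgeR adjusted p = 0.0681) and -0.11 (edgeR adjusted p = 0.227). With the GC and length trend removed, OSMR (-0.26, edgeR adjusted p = 0.000823) and IL1R1, named after its values were seen (-0.34, edgeR adjusted p = 0.00532), were called lower. IL6R had 117 to 157 counts per library and IL6ST 822 to 2049, the latter in P4HA3 overexpression replicate 2, which stood apart. CXCR1 and CCR6 had 0 counts in every library and CXCR2 at most 1, so receptors of the neutrophil chemokines and of CCL20 were at the limit of detection in these cells.

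Downstream of the receptors, 19 signalling genes were tested, with 2 higher, 2 lower and a median log2 fold change of -0.02. DESeq2 called 4 of them higher and 1 lower. SOCS3, a STAT3-induced inhibitor of gp130 signalling, was lower (-0.39, edgeR adjusted p = 0.00705, and -0.19 without the GC and length trend). The other lower gene was SIGIRR, an inhibitory receptor of the IL-1 family named after its values were seen (-1.25, edgeR adjusted p = 0.034). Its mean was below 1 CPM in both groups, with 14, 19 and 26 counts in control cells and 5, 8 and 12 with overexpression. It passed the filter on low counts through the control group. SIGIRR lost its call with the GC and length trend removed (-0.99, edgeR adjusted p = 0.0887). JAK1 (0.21, edgeR adjusted p = 0.034) and MAP3K7 (0.26, edgeR adjusted p = 0.0456) were higher. MAP3K7 lost its call in the same way (0.05, edgeR adjusted p = 0.474). STAT3 was at 384 and 379 CPM (edgeR adjusted p = 0.823).

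Of 9 NF-kB subunits and kinases, 2 were higher and 1 was lower, with a median of -0.02. DESeq2 called 3 of them higher and 1 lower. RELA and NFKB1, the classical subunits, were at log2 fold changes of -0.10 (edgeR adjusted p = 0.308) and -0.02 (edgeR adjusted p = 0.85). RELB, a subunit of the non-canonical pathway, was lower (-0.48, edgeR adjusted p = 0.00645), while MAP3K14 (NIK), the kinase of that pathway, was higher (0.36, edgeR adjusted p = 0.0119). The other higher gene, IKBKG (NEMO), named after its values were seen, was at 0.39 (edgeR adjusted p = 0.0486) and has a near-identical pseudogene, so its count is uncertain. RELB lost its call with the GC and length trend removed (-0.21, edgeR adjusted p = 0.0886), and MAP3K14 kept it (0.53, edgeR adjusted p = 0.000275).

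Among NF-kB inhibitors and feedback targets, many of them genes that NF-kB itself induces, 7 of 16 tested were lower and none higher (also none higher at an unadjusted p under 0.05 or by DESeq2), with a median log2 fold change of -0.17. The shares over all tested genes were 11.4% lower and 9.36% higher. The largest falls were in IER3, a stress-response gene (-0.64, edgeR adjusted p = 0.00261), TNFAIP2 (-0.56, edgeR adjusted p = 0.000592), BCL3, an atypical IkB protein (-0.55, edgeR adjusted p = 0.00277), and NFKBIE, an IkB protein (-0.37, edgeR adjusted p = 0.0264). The remaining lower genes, named after their values were seen, were TNIP1 (-0.35, edgeR adjusted p = 0.00877), ICAM1 (-0.27, edgeR adjusted p = 0.0109) and NFKBIA (-0.23, edgeR adjusted p = 0.0391). The other genes of the list were not called. Among them, named after their values were seen, were TNFAIP3 (0.05, edgeR adjusted p = 0.612) and BIRC3 (0.18, edgeR adjusted p = 0.569). NFKBIZ (-0.04, edgeR adjusted p = 0.782), TRAF1 (-0.05, edgeR adjusted p = 0.808) and CFLAR (0.01, edgeR adjusted p = 0.912) were also among them. With the GC and length trend removed, 5 genes of the list were lower and 1 was higher. The 5 were IER3, TNFAIP2 and BCL3, at -0.45, -0.35 and -0.26, with TNIP1 (-0.17) and ICAM1 (-0.13). NFKBIE (-0.16, edgeR adjusted p = 0.154) and NFKBIA (-0.12, edgeR adjusted p = 0.0575) were not called.

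Of 12 C/EBP and AP-1 factors, 4 were lower and 1 was higher, with a median of -0.18. The shares over all tested genes were 11.4% lower and 9.36% higher. JUNB (-0.42, edgeR adjusted p = 0.00485), CEBPB, a known activator of IL6 (-0.41, edgeR adjusted p = 0.00576), and JUND (-0.35, edgeR adjusted p = 0.0125) were lower, as was CEBPD, named after its values were seen (-0.24, edgeR adjusted p = 0.032), and CEBPG (0.27, edgeR adjusted p = 0.0252) was higher. This group depended on the GC and length trend. With it removed, JUNB was the 1 lower gene (-0.14, edgeR adjusted p = 0.0255), the 2 higher genes were JUN and ATF3 (both picked with their values in view), and the list's median was 0.02. CEBPG was then at 0.12 (edgeR adjusted p = 0.0774), CEBPD at 0.06 (edgeR adjusted p = 0.522), CEBPB at -0.12 (edgeR adjusted p = 0.0752) and JUND at -0.03 (edgeR adjusted p = 0.724).

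Of 14 genes for IL-1 processing and antagonists, 9 were tested, with 5 lower, 1 higher and a median log2 fold change of -0.30. DESeq2 called 6 lower and 1 higher. The shares over all tested genes were 11.4% lower and 9.36% higher by edgeR. The lower genes named by the rule were S100A13, which takes part in the release of IL1A (-0.59, edgeR adjusted p = 0.0166), PYCARD (ASC), the inflammasome adaptor (-0.51, edgeR adjusted p = 0.0126), GSDMD, the pore-forming gasdermin (-0.40, edgeR adjusted p = 0.0136), and CASP1 (-0.32, edgeR adjusted p = 0.0306). GSDME, another gasdermin named after its values were seen, was also lower (-0.30, edgeR adjusted p = 0.0184). CAPN1 was at -0.24 (edgeR adjusted p = 0.0604), and CAPN2, a calpain, was higher (0.20, edgeR adjusted p = 0.0226). With the GC and length trend removed, 3 were lower, namely S100A13, CASP1 and GSDME but not PYCARD (edgeR adjusted p = 0.0557) or GSDMD (edgeR adjusted p = 0.0727).

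Cytokine mRNA turnover genes encode proteins that bind or degrade short-lived mRNAs. Of 14 tested, 1 was lower and 2 were higher, with a median of 0.02. The lower gene was ZC3H12A (Regnase-1), an RNase that degrades IL6 mRNA. It was at 90.9, 87.1 and 82.3 CPM in control cells and 53.4, 48.9 and 55.3 CPM with overexpression, without overlap (log2 fold change -0.72, standard error 0.0675, edgeR adjusted p = 0.000485). RC3H2 (Roquin-2) was higher (0.41, edgeR adjusted p = 0.027, and 0.16 without the GC and length trend), as was TIA1 (0.29, edgeR adjusted p = 0.041), and TIA1 lost its call with the GC and length trend removed (0.04, edgeR adjusted p = 0.626). The most abundant genes of this list, YBX1 and KHSRP, did not pass the test.

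**Figure D5:**
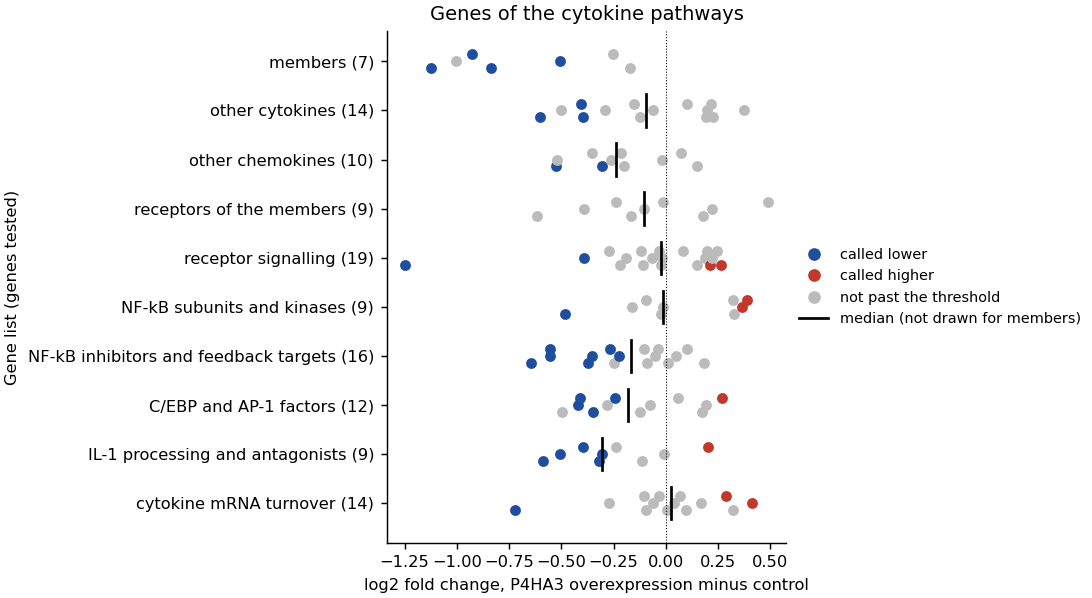
Log2 fold change of P4HA3 overexpression minus control for each tested gene of the cytokine pathway lists (number tested in parentheses), blue where called lower, red where called higher, grey otherwise, with a bar at the list's median except for the 10 genes described here. NF-kB inhibitors and feedback targets hold 7 lower and no higher genes, while receptors hold none in either direction. Among all tested genes, 11.4% were called lower and 9.36% higher.

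Markers of other cell types gave the following values beside these genes. Among all tested genes, 11.4% were called lower and 9.36% higher. An unadjusted p under 0.05 by edgeR was reached by 5854 of 15130. CD14, a monocyte marker and co-receptor for lipopolysaccharide, fell from 99.9 ± 9.25 to 45.1 ± 8.68 CPM (SD, n = 3 per group, log2 fold change -1.15, edgeR adjusted p = 0.000757). The summed leukocyte markers were 91.3 to 109.7 CPM in control cells and 35.2 to 51.0 CPM with overexpression, nearly all of it CD14, while PTPRC, CD3E, CD3D, MS4A1, NKG7, ITGAM and CD163 had at most 1 count in any library. Of 5 endothelial markers, PECAM1 was tested and lower (2.89 to 1.4 CPM, edgeR adjusted p = 0.00494), and the sum of the list was 2.78 to 3.75 CPM in control cells and 1.42 to 1.77 CPM with overexpression. All 7 fibroblast markers were tested and none was called by edgeR or DESeq2 (1 lower at an unadjusted p under 0.05 by each), with sums of 188 to 198 and 148 to 189 CPM. Of 7 smooth muscle markers 3 were tested and TAGLN, an actin-binding protein, was higher (8.84 to 17.2 CPM, edgeR adjusted p = 0.000436), with sums of 102 to 115 and 111 to 128 CPM. Of 8 epithelial markers 7 were tested and 3 were lower, CDH1 (-0.77, edgeR adjusted p = 0.00114), KRT18 (-0.40, edgeR adjusted p = 0.0108) and CDKN2A (-0.27, edgeR adjusted p = 0.0369), with sums of 7020 to 7874 and 6934 to 7978 CPM. After removal of the GC and length trend, CDH1 was at -0.79, KRT18 at -0.20 (edgeR adjusted p = 0.00873) and CDKN2A lost its call (-0.07, edgeR adjusted p = 0.244). The part of other cells in the differences of IL6 and the CXC chemokines was not tested.

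The genes whose 6 library values were most like those of a called member were ranked among 13370 genes of at least 1 CPM, by the root mean square difference of log2 CPM after centring. For IL6 these were DOCK6 (0.0422), FHOD3 (0.0457) and SH3BP2 (0.0471). For CXCL1 they were CLMN (0.0712), MMP11 (0.0798) and B4GALNT4 (0.0801), and for CXCL2 they were TSPAN18 (0.0836), SHANK3 (0.119) and SLC37A2 (0.12).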

How the data were processed

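Per the supplementary methods and labels, the authors prepared poly-A, strand-specific paired-end RNA-seq libraries and aligned reads to GRCh38. The methods name STAR and HTSeq, the submitters' processing notes name HISAT2, and versions, strand setting and treatment of reads with several matches are not given in the sources used here. The deposited values are raw counts per Ensembl gene, without normalization.

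Counts of 3 control and 3 P4HA3 overexpression libraries entered edgeR 4.0.16 (R 4.3.3): filterByExpr with a minimum count of 10, TMM, a two-sided quasi-likelihood test on group alone, and Benjamini-Hochberg adjustment over all 15130 genes tested, called at an adjusted p under 0.05. A gene too low for this fit was given an exact permutation test on CPM. Symbols, positions, GC content and lengths came from GENCODE 44 (GRCh38), which matched 60463 of 60664 identifiers, and SOD2 of the NF-kB list was not matched. Levels between genes are CPM per kb of the transcript used for length. The floor of detection was 3 counts. Promoters came from RefSeq. The script was tested on simulated data. For the GC and length trend, smooth terms of these properties (mgcv 1.9.3) were fitted to how far each library departed from the average library, and served as an offset, which also removes any real difference that follows these properties.

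The genes and lists were chosen with earlier results of these data known. Named genes are all 10 members, P4HA3, and from each other list at most 4 called genes of at least 1 CPM without overlap between groups, by size of change, plus its 2 most abundant tested genes; a gene named outside this rule was picked with its values in view. The gene lists are other cytokines, other chemokines, receptors, receptor signalling, NF-kB subunits and kinases, NF-kB inhibitors and feedback targets, C/EBP and AP-1 factors, IL-1 processing, cytokine mRNA turnover, and markers of epithelial, leukocyte, endothelial, fibroblast and smooth muscle cells. Each list is described by its counts and median. Libraries of one group differed beyond counting noise (chi-square per degree of freedom 4.79 to 16.2). Alternatives were DESeq2 1.42.0, RLE and total-count scaling, other filters, the replicate number as a block, removal of the GC and length trend, and each library left out in turn.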

Additional observations from a re-analysis of the deposited data

How the results depend on the processing

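IL6 and CXCL1 kept their direction and their call in all 14 alternatives, with log2 fold changes of -0.59 to -0.47 and -0.98 to -0.82 and adjusted p of at most 0.0187 and 0.0135. None of the 7 tested members changed direction in any alternative that gave it a value. DESeq2 gave CXCL2 -0.84 (adjusted p = 0.074), gave CXCL3 and IL1B no adjusted p, and called 2 members lower, with 1519 genes lower and 1498 higher of 13041 with an adjusted p. The filter of at least 10 counts in every library removed CXCL3 and IL1B. Leaving out each library in turn gave 2 to 4 members lower, -0.99 to -0.68 for CXCL2, -1.31 to -0.88 for CXCL3, -0.42 to -0.11 for CXCL8, -1.17 to -0.74 for IL1B and -0.34 to -0.01 for LIF. Over all genes it gave 163 (without control replicate 2) to 2814 (without P4HA3 overexpression replicate 1) higher and 371 to 2716 lower genes, with 229 higher without control replicate 1, and 884 and 275 higher without overexpression replicates 2 and 3. Without the filter on low counts, 2384 genes were higher. Depth limits CXCL3, IL1B, IL1A, CCL2 and CCL20, which had at most 24 counts in a library.

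The deviations of same-numbered libraries from their group means correlated at 0.25, -0.049 and 0.030 for replicates 1, 2 and 3. Those of unlike-numbered libraries correlated at -0.30 to 0.27. With 3 libraries per group these deviations are tied to each other, so the correlations cannot decide whether replicate numbers paired the samples. With the replicate block, 4 members were lower and 0 higher, as without it. Over all genes 2138 were higher and 2175 lower with the block, against 1416 and 1731 without it. With the GC and length trend removed and the replicate block, 2141 genes were higher and 1657 lower of 15107, 5 members were lower and CXCL8 passed the threshold (-0.49, adjusted p = 0.022).

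With the GC and length trend removed, without the block, the counts that moved by over 1.5 times were 1 higher in other cytokines, epithelial markers, receptor signalling, cytokine mRNA turnover and NF-kB inhibitors and feedback targets, 2 higher in C/EBP and AP-1 factors and smooth muscle markers, 0 lower in NF-kB subunits and kinases, 1 lower in other chemokines, receptor signalling, C/EBP and AP-1 factors and fibroblast markers, 2 lower in receptors and 3 lower in IL-1 processing. Smaller moves were from 3 to 4 lower in other cytokines, from 3 to 2 lower in epithelial markers and from 7 to 5 lower in NF-kB inhibitors and feedback targets. The genes that gained a call were CLCF1, TGFB2, IL1R1, OSMR, NFKBIB, JUN, ATF3, KRT7, LUM and SMTN, named after their values were seen. The cause of these changes was not tested.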
